A study of Mus musculus with 3 samples.

Results

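The Slc25 genes encode the mitochondrial carriers, the main family of transporters of the inner mitochondrial membrane. All array features whose platform annotation gave exactly 1 gene symbol of the form Slc25a followed by a number were taken, which yielded 36 features for 36 genes, of 21819 gene features on the array. A value was present on all 3 arrays for 33 of these genes, of 19015 rows in all (a row is 1 gene, or 1 feature without a name), and each of the 33 rests on a single feature. Slc25a54, a rodent relative of the ATP-Mg/phosphate carriers, had values on 2 arrays (0.43 on array 2 and -0.22 on array 3). Slc25a15, the main ornithine carrier, had a value on array 1 alone (1.61), and Slc25a32, the folate and FAD carrier, had none; these 3 genes enter no comparison.

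Each array carried RNA of CD1 mouse metanephroi in channel 1, taken 11.5 days post coitum (dpc), and of fetal kidney at 13.5 dpc in channel 2. The tissue was normal primary tissue, microdissected and pooled over both sexes, and its RNA was amplified and labelled through amino allyl groups. The dye order was red/green on arrays 1 and 2 and green/red on array 3. No genotype or treatment differed between the ages, and the labels do not say whether the 3 arrays came from separate pools, so each p-value reflects array-to-array spread alone and that spread may be technical. Values are log2 ratios read as 11.5 over 13.5 dpc, so a positive value stands for more RNA at 11.5 dpc. That direction is likely rather than settled: the labels put the younger age first and in channel 1, but do not state which way the ratio runs on array 3. A ratio carries no level, so neither the presence of a transcript nor the make-up of the tissue by its markers can be read from it, and in such bulk tissue fewer cells of a type and less RNA per cell cannot be told apart.

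Mitochondrial carriers are small membrane proteins built from 3 repeats, each with a pair of membrane-spanning helices, and they exchange or import one class of solute each. Through them the matrix receives ADP, phosphate, keto acids, amino acids, cofactors and iron, and releases ATP and citrate. In the mature kidney the tubule epithelium is rich in mitochondria and depends on this traffic for oxidative ATP supply. At the earlier age the ureteric bud has only just entered the mesenchyme, and at the later one the first nephrons are forming.

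No Slc25 gene differed between the ages past the threshold of limma, a linear model that borrows the spread from all rows (adjusted p under 0.05, Benjamini-Hochberg over 19015 rows). The count was 0 of 33, against 0% of all rows, and the smallest adjusted p among the members was 0.372. At an unadjusted limma p under 0.05 there were 2 of the 33 genes (6.06%), against 9.24% of all rows. Those 2 genes were Slc25a10, the dicarboxylate carrier, with a lower ratio, and Slc25a23, an ATP-Mg/phosphate carrier, with a higher ratio at 11.5 dpc. Ratios of 1 sign throughout the arrays were seen in 8 genes (24.2%), 3 of them higher and 5 lower at 11.5 dpc, against 35.3% of all rows (16.8% higher and 18.5% lower). None of the 33 was at least 2-fold different with 1 sign on every array, against 0.684% of all rows. These counts are small and their rules overlap. The shares were not tested against those of all rows, and no difference is read from them.

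These directions rest on how array 3 is read. With the sign of array 3 turned, 6 other genes had 1 sign throughout (18.2%, against 29.2% of all rows), namely Slc25a2, Slc25a5, Slc25a11, Slc25a18, Slc25a37 and Slc25a53. All 6 were higher and 0 lower at 11.5 dpc, against 18.9% and 10.3% of all rows. The 8 genes above lose their common sign by that construction. Of the 2 at an unadjusted p under 0.05, Slc25a10 then had a mean of -0.29 and Slc25a23 of 0.32, and neither remained at that p; the 1 member that reached it was Slc25a18. Slc25a12 had -0.14, Slc25a28 -0.095, Slc25a39 -0.056 and Slc25a36 -0.82, while Slc25a38 (-1.05) and Slc25a46 (-0.19) changed sign.

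The promoters of the 2 genes at an unadjusted p under 0.05 are shown because these carriers had the smallest p-values, in opposite directions, with array 3 as deposited. The sequences are from RefSeq on GRCm38.p6 and cover only the bases before the annotated gene, 5′ to 3′ on the gene's strand. Capitals mark the letters GGGCGG, known as a GC box. They also mark the letters CCAAT, and both motifs were searched on both strands, as were those named further on; overlapping matches were counted.
Slc25a10, chr11:120491587-120491836, plus strand: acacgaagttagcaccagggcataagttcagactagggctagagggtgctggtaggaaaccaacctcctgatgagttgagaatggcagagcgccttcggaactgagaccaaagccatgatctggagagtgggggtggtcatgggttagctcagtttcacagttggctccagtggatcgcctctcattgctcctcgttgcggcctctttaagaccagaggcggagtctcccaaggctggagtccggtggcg
Slc25a23, chr17:57059910-57060113, minus strand: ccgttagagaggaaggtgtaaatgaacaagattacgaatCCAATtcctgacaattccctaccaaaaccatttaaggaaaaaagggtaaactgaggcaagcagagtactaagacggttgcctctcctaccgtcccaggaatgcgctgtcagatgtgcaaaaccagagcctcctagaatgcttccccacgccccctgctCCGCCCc
The stretch for Slc25a10 held neither motif, and that for Slc25a23 held 1 of each. In the whole promoter windows of 300 bases, from 250 bases before to 50 after the start, both genes held 2 GC boxes and 1 CCAAT. Windows were found for 26 of the 33 members, of which 23 (88.5%) held a GC box, against 46.3% of 17491 protein-coding promoters. The CCAAT box lay in 13 of the 26 windows, and in 6826 of those promoters. TATAAA was found in 1 window, that of Slc25a18, against 13.3% of promoters. The E-box CACGTG lay in 6 members' windows (23.1%, against 7.90%), and AGATAAG, a motif of the erythroid GATA factors, in that of Slc25a5 alone (against 2.64%). TCAAGGTCA, an element of the ERR receptors, was in 0 of the 26 windows, against 0.332% of promoters. These matches describe the letters of the windows and were not related to the ratios.

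**Figure D1:**
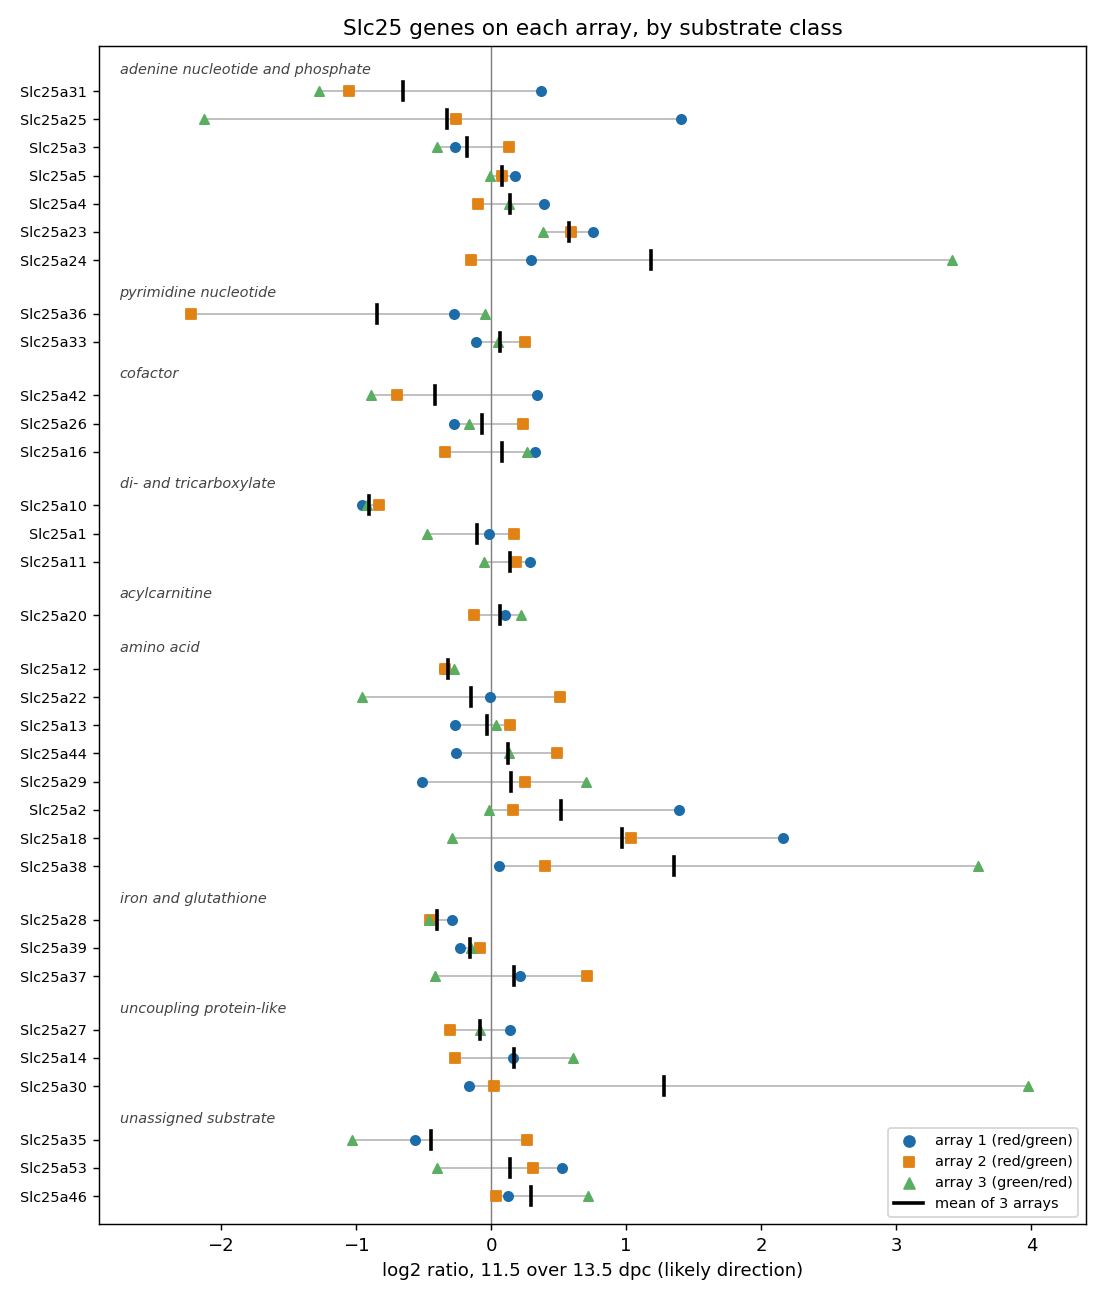
Log2 ratio of each Slc25 gene on arrays 1, 2 and 3 (points) with their mean (black bar), grouped by the substrate of the carrier. Slc25a10, Slc25a12 and Slc25a28 have their 3 points close together left of 0, Slc25a23 has them right of 0, and Slc25a24, Slc25a30 and Slc25a38 have array 3 alone above 3.

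The carriers of di- and tricarboxylates move intermediates of the citric acid cycle. Slc25a10, which exchanges malate or succinate for phosphate, had log2 ratios of -0.95, -0.83 and -0.92 on arrays 1, 2 and 3. Their mean was -0.90 ± 0.065 (SD), which stands for a 1.87-fold higher level at 13.5 dpc (95% interval of the log2 ratio -1.30 to -0.50; limma adjusted p = 0.372). All 3 arrays were thus low, with array 3, of the other dye order, between the other two. Slc25a11, the oxoglutarate/malate carrier of the malate-aspartate shuttle, had 0.29, 0.19 and -0.054, with a mean of 0.14 ± 0.18 (SD, n = 3 arrays, as for every mean below). Slc25a1, the citrate carrier that feeds fatty acid synthesis, had -0.013, 0.17 and -0.48 and a mean of -0.11 ± 0.33. Neither of these genes held its sign across the arrays. On each array the ratio of Slc25a10 lay below that of Slc25a11, by -1.24, -1.01 and -0.87.

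Adenine nucleotides and phosphate are carried by 7 of the members measured. Slc25a4 and Slc25a5 are the ADP/ATP carriers of heart and muscle and of dividing cells, and they were close to 0. Slc25a4 had 0.39, -0.099 and 0.13 (mean 0.14 ± 0.25), and Slc25a5 had 0.18, 0.079 and -0.0072 (mean 0.083 ± 0.092). The 95% intervals of these means, -0.34 to 0.62 and -0.33 to 0.49, lie inside a 2-fold difference either way. The 2 genes are close in sequence, so cross-hybridisation between their transcripts could not be assessed without the oligonucleotide sequences. Slc25a31, the ADP/ATP carrier of germ cells, had 0.37, -1.05 and -1.27 (mean -0.65 ± 0.89). Beside it, the germ cell markers had a median of -0.12. Of 6 measured, 0 were positive and 2 negative on all arrays, against 16.8% and 18.5% of all rows. With array 3 turned the median was -0.017, with 2 positive and 1 negative, against 18.9% and 10.3% of all rows so turned. Dazl had -0.57 ± 0.35 and Ddx4 -0.43 ± 0.20. Pou5f1 (0.26 ± 0.61) and Sycp3 (0.026 ± 0.26), named after their values were seen, had positive means. The part of germ cells in the ratio of Slc25a31 was not tested. Slc25a3, which imports the phosphate for ATP synthesis, had -0.27, 0.13 and -0.40 (mean -0.18 ± 0.28).

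The ATP-Mg/phosphate carriers adjust the adenine nucleotide pool of the matrix and are activated by calcium. Slc25a23 had 0.75, 0.59 and 0.38 on arrays 1, 2 and 3, all of them high. The mean was 0.58 ± 0.19, a 1.49-fold higher level at 11.5 dpc (95% interval 0.13 to 1.02; limma adjusted p = 0.516). Slc25a24 had 0.30, -0.15 and 3.41, so that array 3 alone set its mean of 1.19 ± 1.94, which was 0.072 without it. Slc25a25 had 1.40, -0.26 and -2.13, with a mean of -0.33 ± 1.77 that lay well inside its own spread. The 3 paralogs therefore shared no pattern over the arrays, and only Slc25a23 had 1 sign on all of them.

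Both pyrimidine nucleotide carriers, which supply the matrix with precursors for its DNA and RNA, were measured. Slc25a36 had -0.27, -2.22 and -0.044, negative on every array, and array 2 alone set its mean of -0.85 ± 1.20. Slc25a33 had -0.11, 0.25 and 0.054 (mean 0.063 ± 0.18). Without array 2 the mean of Slc25a36 was -0.16.

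Among amino acid carriers, Slc25a12 (aralar) and Slc25a13 (citrin) export aspartate in exchange for glutamate and complete the malate-aspartate shuttle. Slc25a12 had -0.35, -0.34 and -0.27, all low, with a mean of -0.32 ± 0.041, a 1.25-fold higher level at 13.5 dpc. Its 95% interval, -0.72 to 0.080, reached past 0 (limma adjusted p = 0.574). Slc25a13 had -0.27, 0.14 and 0.038 (mean -0.029 ± 0.21). On each array Slc25a12 lay below Slc25a13, by -0.077, -0.48 and -0.31. The glutamate carriers Slc25a18 and Slc25a22 differed more widely between arrays. Slc25a18 had 2.16, 1.04 and -0.29, high on both red/green arrays and low on the green/red one (mean 0.97 ± 1.23, and from 0.37 to 1.60 when 1 array was left out). Slc25a22 had -0.0058, 0.51 and -0.95 (mean -0.15 ± 0.74).

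Slc25a2, the second ornithine carrier, had 1.39, 0.16 and -0.012, with array 1 apart from the others (mean 0.51 ± 0.76, and 0.077 without array 1). Slc25a29, a carrier of basic amino acids, had -0.51, 0.25 and 0.70 (mean 0.15 ± 0.62), and Slc25a44, which imports branched-chain amino acids, had -0.26, 0.49 and 0.13 (mean 0.12 ± 0.37). Slc25a38, which brings in glycine for the first step of haem synthesis, had 0.062, 0.40 and 3.61. It was positive on all 3 arrays, but its mean of 1.36 ± 1.96 became 0.23 without array 3. Of the 8 amino acid carriers, 1 was positive and 1 negative on all arrays, against 16.8% and 18.5% of all rows.

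Iron and glutathione carriers serve haem and iron-sulfur cluster synthesis. Slc25a28 (mitoferrin 2), the iron carrier of most tissues, had -0.29, -0.45 and -0.46, all low, with a mean of -0.40 ± 0.095 (95% interval -0.81 to 0.0098; limma adjusted p = 0.539). Slc25a37 (mitoferrin 1), the iron carrier of red blood cell precursors, had 0.21, 0.71 and -0.41, with a mean of 0.17 ± 0.56. On each array Slc25a28 lay below Slc25a37, by -0.50, -1.16 and -0.043. Slc25a39, a carrier linked to glutathione import, had -0.23, -0.082 and -0.15, negative on every array, with a mean of -0.15 ± 0.076.

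With array 3 as deposited, markers of red blood cells were more often higher than lower at 11.5 dpc, though some had negative means. Of 20 erythroid markers measured out of 24, 11 were positive and 1 negative on all arrays, against 16.8% and 18.5% of all rows. At an unadjusted limma p under 0.05 there were 7, against 9.24% of all rows. All 7 were higher at 11.5 dpc, and 0 passed the adjusted threshold. The shares were not tested against those of all rows. The list's median was 0.36, 0.61 and 0.28 on arrays 1, 2 and 3. With array 3 turned, 1 was positive and 3 negative on all arrays, against 18.9% and 10.3% of all rows so turned. The median of the means then went from 0.36 to 0.21. Ermap, an erythroid membrane protein gene, had 3.51 ± 0.25, and the erythroid transcription factor gene Klf1 had 2.18 ± 0.22. Other core erythroid genes had negative means, among them the transcription factor gene Gata1 (-0.73 ± 0.80) and the anion exchanger gene Slc4a1 (-0.31 ± 0.40). Both were picked out after their values were seen, and neither held 1 sign, with 0.059 and 0.091 on array 3. The haem and iron-sulfur list, which shares Alas2, Fech and Tfrc with the erythroid one, had a median of 0.18 over 13 of 16 genes. On all arrays 6 were positive and 3 negative, against 16.8% and 18.5% of all rows. With array 3 turned 2 were positive and 0 negative, against 18.9% and 10.3% of all rows so turned, and the list's median was 0.20. Alas2, the first haem enzyme of red blood cells, had 1.28 ± 0.31, and Isca1, an iron-sulfur assembly gene, had 0.45 ± 0.019. The part of blood cells in the ratios of Slc25a37, Slc25a38 and Slc25a39 was not tested. Slc25a37 lay below the erythroid median on arrays 1 and 3 and above it on array 2.

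The uncoupling protein-like members are inner membrane carriers named for their likeness to the uncoupling protein of brown fat. Slc25a14 had 0.16, -0.27 and 0.61 (mean 0.17 ± 0.44), and Slc25a27 had 0.14, -0.30 and -0.079 (mean -0.081 ± 0.22). Slc25a30, first described as a kidney mitochondrial carrier, had -0.16, 0.021 and 3.97. The last value alone gave its mean of 1.28 ± 2.34, and without array 3 the mean was -0.069.

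Cofactor carriers had no member with 1 sign on all arrays. Slc25a42, the coenzyme A carrier, had 0.34, -0.70 and -0.89 (mean -0.42 ± 0.66). Slc25a16, also tied to coenzyme A, had 0.33, -0.34 and 0.27 (mean 0.084 ± 0.37), and Slc25a26, which imports S-adenosylmethionine, had -0.27, 0.24 and -0.16 (mean -0.066 ± 0.27). Slc25a20, the carnitine/acylcarnitine carrier of fatty acid oxidation, had 0.10, -0.12 and 0.22 (mean 0.067 ± 0.18). Its 95% interval, -0.37 to 0.51, also lay inside a 2-fold difference either way. Of the members given no substrate here, Slc25a46, an outer membrane protein that shapes mitochondria, had 0.12, 0.036 and 0.72 and was positive on all arrays (mean 0.29 ± 0.37). Slc25a35 had -0.56, 0.26 and -1.03 (mean -0.44 ± 0.66), and Slc25a53 had 0.53, 0.31 and -0.40 (mean 0.14 ± 0.48).

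**Figure D2:**
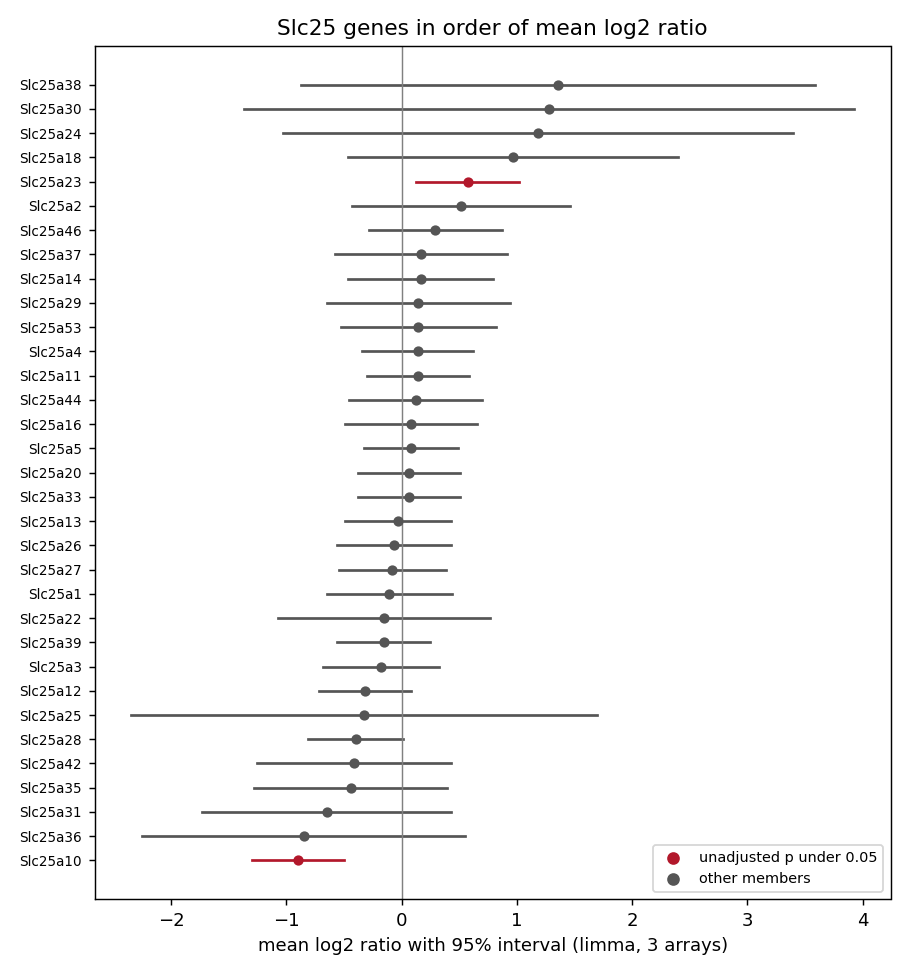
Mean log2 ratio of the 33 Slc25 genes over 3 arrays with the 95% interval from limma, in order of the mean. The intervals of Slc25a10 (-1.30 to -0.50) and Slc25a23 (0.13 to 1.02) lie clear of 0, and the highest means, of Slc25a38, Slc25a30 and Slc25a24, have wide intervals that cross it.

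In order of the mean, Slc25a10 (-0.90), Slc25a36 (-0.85) and Slc25a31 (-0.65) stood lowest, and Slc25a38 (1.36), Slc25a30 (1.28) and Slc25a24 (1.19) highest. With array 3 turned the order was another: Slc25a30 (-1.37), Slc25a24 (-1.09) and Slc25a38 (-1.05) stood lowest, and Slc25a18 (1.16) and Slc25a25 (1.09) highest. In the order with array 3 as deposited, neighbours lay closer together than the larger of their 2 SDs in 32 of 32 cases. Among 33 means small gaps between neighbours were likely in advance, so nothing further is read from that count. The SD of 6 members exceeded 1 log2 unit (18.2%, against 11.7% of all rows). The median SD was 0.37 for the members and 0.34 for all rows. The median of the 33 means was 0.067, against -0.0084 for all rows, with 18 positive and 15 negative. On single arrays the members' median was 0.10, 0.079 and -0.054, against 0.011, 0.064 and -0.091 for all rows, so no direction can be given for the family. By class the median ran from -0.39 for the 2 pyrimidine nucleotide carriers to 0.17 for the 3 uncoupling protein-like ones. It was 0.083 for the 7 adenine nucleotide and phosphate carriers, 0.13 for the 8 amino acid carriers, -0.066 for the 3 cofactor carriers, -0.11 for the 3 di- and tricarboxylate carriers, -0.15 for the 3 iron and glutathione carriers and 0.14 for the 3 without a substrate.

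Array 3 gave the widest spread and the highest values of the family, while the lowest value, -2.22 for Slc25a36, was on array 2. Its ratios ran from -2.13 (Slc25a25) to 3.97 (Slc25a30) with an SD over the 33 genes of 1.28, against 0.61 on array 1 and 0.59 on array 2. Over all rows the SD was 0.93, 0.56 and 0.75 on arrays 3, 1 and 2. Slc25a24, Slc25a30 and Slc25a38 exceeded 3 log2 units on array 3 while lying within 0.5 of 0 on arrays 1 and 2. That pattern, singled out after the values were seen, was shared by 3 of 33 members (9.09%) and by 0.673% of all rows; with arrays 1 and 2 left free, the same 3 members exceeded 3 log2 units on array 3, against 2.31% of all rows. On arrays 1 and 2 the highest member was Slc25a18, and the lowest were Slc25a10 and Slc25a36. Across the 33 genes, which are not independent replicates, Pearson's r was 0.29 between arrays 1 and 2, -0.10 between 1 and 3 and 0.14 between 2 and 3. Over all rows it was 0.27, 0.12 and -0.12.

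**Figure D3:**
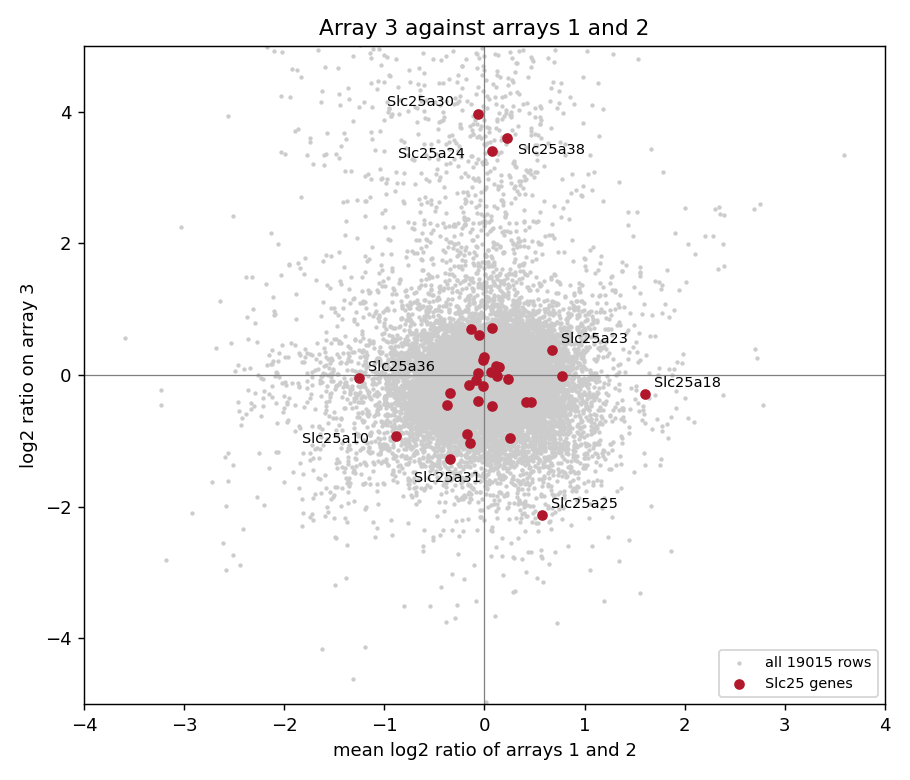
Log2 ratio on array 3 against the mean of arrays 1 and 2 for all 19015 rows (grey; 78 rows lie outside the axes) and the Slc25 genes (red). Slc25a24, Slc25a30 and Slc25a38 lie between 3.41 and 3.97 on array 3 and near 0 on the others, and Slc25a10 lies near -0.9 on both axes.

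Differences between relatives were compared within arrays for 10 pairs, which were chosen after the values were seen. With 3 arrays an exact two-sided sign-flip permutation test cannot go below p = 0.25, and the 6 pairs with 1 sign on all arrays reached that value (0.417 adjusted over the 10 pairs). With array 3 turned these 6 lose their common sign by construction, and the 1 pair that then had 1 sign was Slc25a23 above Slc25a24 (mean difference 1.41). With array 3 as deposited, the pair with the smallest spread for its size was Slc25a10 and Slc25a11, with a mean difference of -1.04 ± 0.19. Slc25a12 lay below Slc25a13 by a mean of -0.29 ± 0.20, and Slc25a28 below Slc25a37 by -0.57 ± 0.56. Slc25a18 lay above Slc25a22 by 1.12 ± 0.91, Slc25a33 above Slc25a36 by 0.91 ± 1.35 and Slc25a14 above Slc25a27 by 0.25 ± 0.38. The signs differed between arrays for Slc25a4 and Slc25a5 (0.058 ± 0.21), Slc25a31 and Slc25a5 (-0.73 ± 0.81), Slc25a23 and Slc25a24 (-0.61 ± 2.10) and Slc25a23 and Slc25a25 (0.90 ± 1.58).

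The genes that work with the carriers also gave 0 rows past limma's adjusted threshold. Relatives that carry other names had a median of -0.22 over 4 of 5 genes (0.0043 with array 3 turned). Mtch1, an outer membrane relative, had -0.22 ± 0.12, and the muscle uncoupling protein gene Ucp3 had -0.30 ± 0.47. The import machinery that inserts carriers had a median of 0.047 over 21 of 21 genes. On all arrays 6 were positive and 2 negative, against 16.8% and 18.5% of all rows. With array 3 turned 3 were positive and 1 negative, against 18.9% and 10.3% of all rows so turned, and the list's median was 0.086. Tomm6, a small subunit of the outer membrane pore, had -1.66, -1.42 and -1.88 on arrays 1, 2 and 3 (limma adjusted p = 0.326), and Tomm5, another, had 0.48 ± 0.31. Other transport genes of the mitochondrial membranes had a median of -0.091 over 15 of 19 (0.070 with array 3 turned). Sfxn4, of the sideroflexin family, had 0.65 ± 0.29, and the calcium uniporter gene Mcu had 0.73 ± 0.64.

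Enzymes that use the carried substrates had medians near or below 0 with array 3 as deposited, and above 0 with it turned. Malate-aspartate shuttle and citrate enzymes had a median of -0.22 over 10 of 12 genes. On all arrays 0 were positive and 5 negative, against 16.8% and 18.5% of all rows. With array 3 turned their median was 0.018, with 1 positive and 1 negative, against 18.9% and 10.3% of all rows so turned. Glud1, the glutamate dehydrogenase of the matrix, had -0.40 ± 0.082, and the malate dehydrogenase gene Mdh2 had -0.38 ± 0.23. Ornithine and urea enzymes had a median of -0.20 over 6 of 10 (0.091 with array 3 turned). On the turned reading 0 had 1 sign, against 29.2% of all rows. As deposited, 0 were positive and 2 negative on all arrays, against 16.8% and 18.5% of all rows. Among them Aldh18a1, which makes the precursor of proline and ornithine from glutamate, had -1.03, -0.97 and -1.66 (mean -1.22 ± 0.38; limma adjusted p = 0.385), and Odc1, the first enzyme of polyamine synthesis, had -0.20 ± 0.15. Carnitine shuttle and fatty acid oxidation enzymes had a median of 0.014 over 8 of 10 (0.086 with array 3 turned). The carnitine transferase genes Cpt2 and Crat had -0.21 ± 0.10 and -0.16 ± 0.11.

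**Figure D4:**
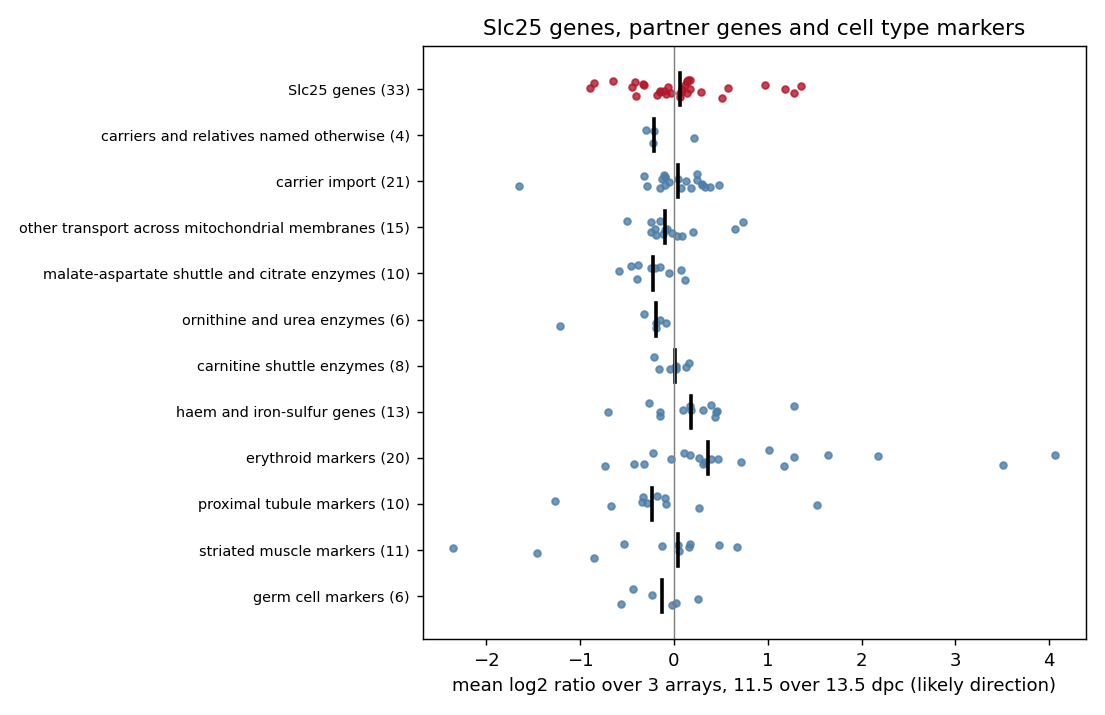
Mean log2 ratio over 3 arrays of the Slc25 genes (red), of partner genes and of cell type markers (blue), 1 point per gene, with the median of each list (black bar) and the number measured in brackets. The Slc25 median of 0.067 lies near 0, and the erythroid markers reach from -0.73 to 4.07.

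Cell types rich in mitochondria were followed through their markers. Proximal tubule markers had a median of -0.23 over 10 of 11, with means from -1.27 to 1.53. On all arrays 1 was positive and 4 negative, against 16.8% and 18.5% of all rows. With array 3 turned the list's median was -0.15, with 2 positive and 1 negative, against 18.9% and 10.3% of all rows so turned. The brush border peptidase gene Anpep had -1.27 ± 0.59 and the glucose transporter gene Slc5a2 -0.67 ± 0.59. Miox, with 0.17, 0.76 and 3.65, and Hnf4a (0.26 ± 0.83) had positive means and were named after their values were seen. Slc25a10 and Slc25a12 had negative ratios on the same arrays, and the part of the tubule in them was not tested. Striated muscle markers had a median of 0.042 over 11 of 12. On all arrays 3 were positive and 4 negative, against 16.8% and 18.5% of all rows, so the list had no common direction. With array 3 turned 0 had 1 sign, against 29.2% of all rows. The muscle actin gene Acta1 had -2.36 ± 0.65 and the myosin light chain gene Myl1 -1.46 ± 0.47, but the cardiac actin gene Actc1, named after its value was seen, had 0.68 ± 0.14. Slc25a4, the muscle form of the ADP/ATP carrier, had a mean of 0.14.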

How the data were processed

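The deposited values are log2 ratios between the channels of each two-channel Compugen oligonucleotide array; base 2 was found from the values, since 2 raised to each value between -3 and 2 was a whole multiple of 0.001 (within 0.02 of that step) for 100% of them. Per the labels, images were quantified with Imagene 5.5. The labels carry 2 accounts of the normalisation, print-tip loess followed by a step between arrays in R, and a Lowess curve through 20% of the data with the control channel set to at least 10; which of them made the values is not stated. Spot intensities were not analysed here, so neither background nor saturation was checked and dim spots were not filtered. The number of arrays limits the precision.

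Of 22702 features, 883 control or blank features were left out. Symbols came from the platform annotation, with 1 symbol for 16656 gene features, several for 137 and none for 5026, and were checked through Entrez identifiers against the RefSeq gene table of GRCm38.p6, which held all 36 members. Only features measured on all 3 arrays entered, with those of 1 symbol averaged. The mean ratio of each row was compared with 0 by limma 3.58.1 under R 4.3.3 (lmFit, eBayes, two-sided, Benjamini-Hochberg over 19015 rows), after tests on simulated data. Array 3 was used as deposited. Alternatives were array 3 turned, median centring, scaling, quantile normalisation, a dye term, each array left out, single features, values on at least 2 arrays, a running median over 150 features on either side, and an ordinary one-sample test. All members were named. Of each partner or marker list, the 2 genes with the smallest p were named; the rule allowed up to 3, and the smaller number, like the pairs of relatives, the motifs, their protein-coding background and the 2 promoters shown, was chosen after values were seen. A further motif was searched and is not reported here. The members, classes and lists were chosen with earlier results of these data known.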

Additional observations from a re-analysis of the deposited data

How the results depend on the processing

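Limma called 0 rows and 0 Slc25 genes under every alternative, and so did the ordinary one-sample test. At an unadjusted p under 0.05 there were 736 to 2669 rows and 1 to 5 Slc25 genes, and the smallest adjusted p of a member was 0.133 (dye term). Each ratio sets both ages against each other on 1 array, so the limma test is itself paired. The median of the Slc25 genes ran from -0.030 (without array 2) to 0.036 (without array 1) when 1 array was left out. Slc25 genes with 1 sign on the remaining arrays then numbered 17 without array 1, 18 without array 2 and 14 without array 3. Of all rows, 51.2%, 54.9% and 64.5% had 1 sign in these settings. Only 2 arrays then had to share the sign, and the shares were not tested against each other.

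Of the 33 members, 11 kept the sign of their mean under each of 11 alternatives: Slc25a2, Slc25a4, Slc25a5, Slc25a10, Slc25a11, Slc25a12, Slc25a18, Slc25a23, Slc25a28, Slc25a36 and Slc25a39. Single features and values on at least 2 arrays could not change these means, since each member rests on 1 feature with a value on all arrays. The share of all rows that kept their sign under every alternative was not counted, so the 11 genes are not set apart from other rows. Median centring, scaling, quantile normalisation and the dye term turned 0 of the 33 means. Slc25a10 ran from -0.94 to -0.87 without 1 array and was -0.29 with array 3 turned. With array 3 turned, 16 means changed sign by that construction: Slc25a31 (0.20), Slc25a25 (1.09), Slc25a3 (0.089), Slc25a24 (-1.09), Slc25a42 (0.18), Slc25a26 (0.043), Slc25a16 (-0.095), Slc25a1 (0.21), Slc25a20 (-0.082), Slc25a22 (0.48), Slc25a29 (-0.32), Slc25a38 (-1.05), Slc25a14 (-0.24), Slc25a30 (-1.37), Slc25a35 (0.24) and Slc25a46 (-0.19). So did the partner genes and markers Mtch1 (0.012), Mdh2 (0.0012), Crat (0.024), Slc5a2 (0.20) and Ddx4 (0.0048), whose alternatives were added after the data were seen. After the running median Slc25a13 was 0.076; the cause was not tested.

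Leaving out 1 array turned further means, with ranges of -0.22 to 0.037 for Slc25a26, -0.036 to 0.30 for Slc25a16, -0.12 to 0.091 for Slc25a13, -0.047 to 0.42 for Slc25a53, -0.030 to 0.15 for Slc25a33, -0.062 to 0.31 for Slc25a44, -0.10 to 0.46 for Slc25a37, -0.19 to 0.029 for Slc25a27, -1.19 to 0.57 for Slc25a25, -0.24 to 0.077 for Slc25a1, -0.012 to 0.16 for Slc25a20, -0.48 to 0.25 for Slc25a22, -0.13 to 0.48 for Slc25a29, -0.052 to 0.38 for Slc25a14 and -0.069 to 2.00 for Slc25a30.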
